A study of Mus musculus with 4 samples.

Results

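The genes described here are 9 genes of glutathione and thioredoxin metabolism that respond to the transcription factor NRF2, namely Slc7a11, Gclc, Gclm, Gsr, Txnrd1, Srxn1, Prdx1, Nqo1 and Nfe2l2 itself. They were taken by name, as probe sets whose platform annotation carries that 1 gene symbol, with the brightest probe set standing for a gene, and all 9 were found among the 18820 genes with such a probe set. RNA came from the inferior vena cava of C57BL/6J wild-type mice and of mice lacking CD39, an ectonucleotidase encoded by Entpd1, that had been backcrossed to this strain for at least 8 generations. The 4 groups were CD39 knockout, ligated for 48 h; CD39 knockout, sham; wild type, ligated for 48 h; and wild type, sham, where sham mice had the vein dissected but not tied. All mice were 8 to 10 weeks old, males or females, and ligation stopped flow in the vein below the kidneys to make a thrombus form. Each group was 1 pool of RNA from 4 mice on 1 array, so a difference between arrays has no replicate check, carries no p-value, and is given as a log2 difference or a fold. The protocol allows complete or partial ligation, either sex and vein with or without its clot, and the labels do not say which of these went into a pool.

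NRF2, the product of Nfe2l2, is held at low levels by KEAP1, which directs it to degradation. When electrophiles or oxidants modify KEAP1, NRF2 accumulates, pairs with a small MAF protein and binds antioxidant response elements in front of its target genes. The targets import cystine, make and recycle glutathione, keep thioredoxin reduced and detoxify quinones. In a vein with a thrombus, activated leukocytes and heme from lysed red cells are known sources of oxidants, and endothelial and smooth muscle cells as well as macrophages use this pathway.

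The promoter stretches that follow are shown because NRF2 acts through them, and the letters of its core element could be looked for in these genes. RefSeq promoter windows of build GRCm38.p6, running from 250 bases before to 50 bases after a gene's start, were given for 7 of the 9 genes, all but Gclc and Gsr. The letters TGACNNNGC were searched on both strands. They occurred in a window of 5 of these 7 genes (Gclm, Txnrd1, Prdx1, Nfe2l2 and, 29 to 37 bases after the start, Srxn1), against 14.0% of all 27025 genes with a window and 12.4% of the 32851 windows. Capitals mark the match in the 4 stretches before a start. Only the match of Prdx1 overlapped the AP-1 letters TGANTCA, which 9.0% of genes hold. Txnrd1 has 3 windows, of which 1 held a match.

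Gclm, chr3:122245393-122245461, plus strand: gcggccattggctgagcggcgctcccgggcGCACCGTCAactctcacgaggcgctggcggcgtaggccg
Txnrd1, chr10:82859084-82859152, plus strand: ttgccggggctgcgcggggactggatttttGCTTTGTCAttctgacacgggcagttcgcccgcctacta
Prdx1, chr4:116685436-116685504, plus strand: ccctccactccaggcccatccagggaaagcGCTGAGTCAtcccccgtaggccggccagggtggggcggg
Nfe2l2, chr2:75704865-75704913, minus strand: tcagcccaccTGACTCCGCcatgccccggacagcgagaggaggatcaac

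The windows of Slc7a11 and Nqo1 did not hold these letters. The Slc7a11 window held, on opposite strands, 2 matches to TGATGNAA, a composite element read by ATF4, a stress factor that also acts on Slc7a11. These letters occurred in 4.5% of genes with a window and in none of the other 6 genes. Capitals mark both.

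Slc7a11, chr3:50443623-50443709, minus strand: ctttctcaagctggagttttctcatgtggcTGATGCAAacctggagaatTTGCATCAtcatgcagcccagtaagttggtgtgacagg

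Before the values, 1 array needs a caution. Entpd1, the deleted gene, had a log2 value of 6.14 on the array labelled CD39 knockout, ligated, against 6.17 in wild type, ligated, and 4.16 in CD39 knockout, sham, against 7.11 in wild type, sham. Its level was thus 7.73-fold lower in the knockout after sham surgery and differed by -0.03 log2 after ligation, so it goes against the label of the ligated knockout array. Whether its probe set reads the exons removed by the deletion is not known here. That array is called by its label throughout, and every direction drawn from it rests on the label. The arrays had median log2 values of 2.97 to 3.04, and the 95th percentile of 990 olfactory receptor genes, used as a stand-in for background, lay between 2.67 and 2.98. Markers of endothelium (8 of 8) and smooth muscle (8 of 8, but 7 of 8 on the array labelled CD39 knockout, ligated, where Myocd was not) were above that background on the arrays.

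The 9 genes did not move together. Slc7a11, Gclm, Gsr, Txnrd1 and Srxn1 were highest on the array labelled CD39 knockout, ligated, whereas Gclc, Prdx1 and Nqo1 were highest in wild type, sham, and Nfe2l2 in CD39 knockout, sham. Of the latter genes only Gclc stood clear. Prdx1 led narrowly (8.55 against 8.53 in wild type, ligated), and its second probe set was highest on the array labelled CD39 knockout, ligated. Nqo1 was at background on every array. Nfe2l2 led by 8.09 against 8.02 on the array labelled CD39 knockout, ligated. Over the 14115 genes kept after a filter on dim ones, 25.5% were highest on the array labelled CD39 knockout, ligated. All 9 genes passed that filter, a mean log2 of at least 2.29, but Slc7a11 passed it only through its 1 high array, having a mean of 1.91 over the other 3.

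**Figure D1:**
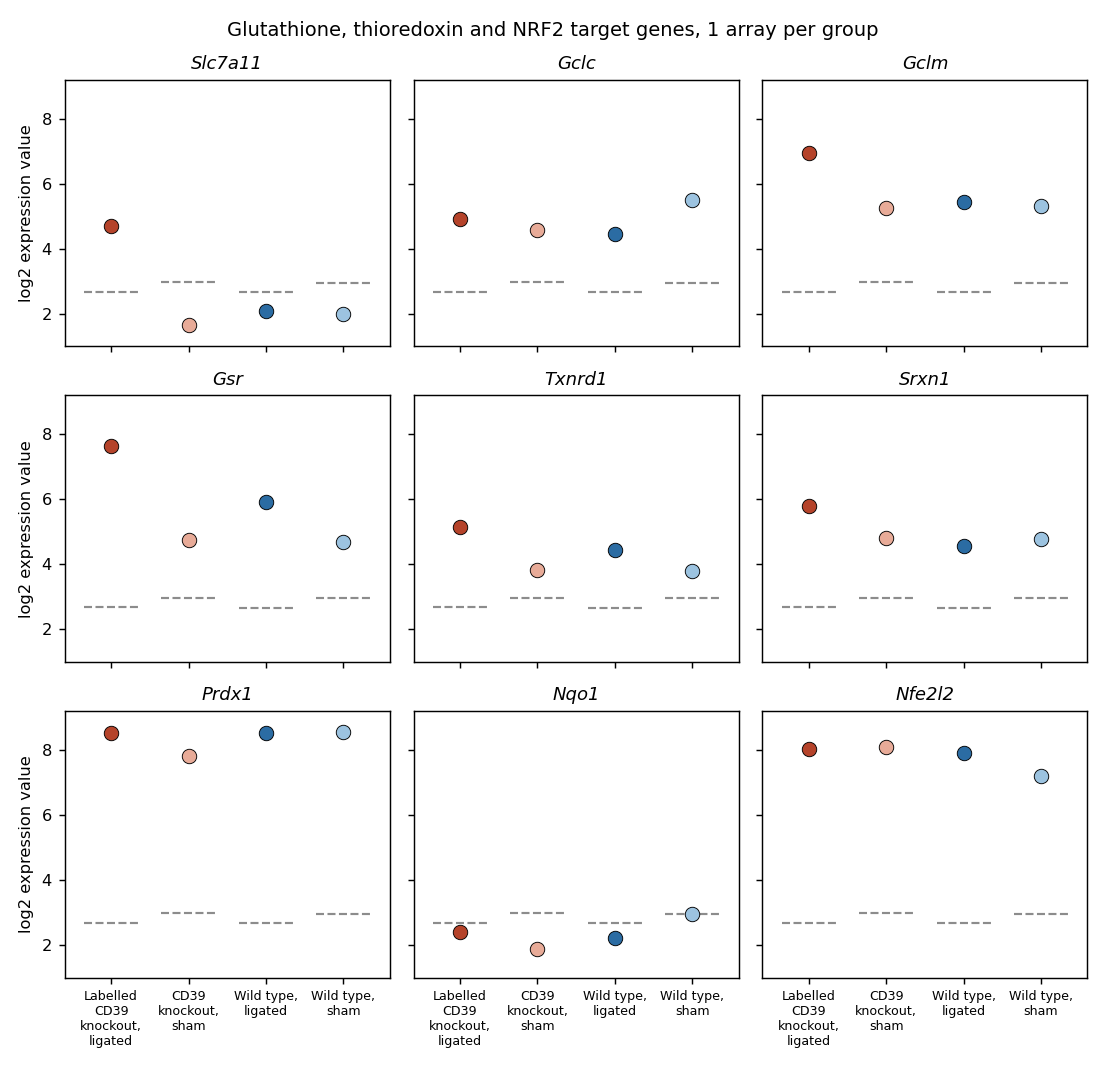
Log2 expression value (vertical axis) of each of the 9 genes on the 4 arrays (horizontal axis, 1 pool of 4 mice each). Each point is 1 array, and the dashed line at it is the 95th percentile of olfactory receptor genes on that array. Slc7a11 stands above this line on 1 array, at 4.71, and Nqo1 on none.

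Slc7a11 encodes the cystine transporter subunit xCT, which brings in the cystine that limits glutathione synthesis. Its log2 value was 4.71 on the array labelled CD39 knockout, ligated, against 1.65 in CD39 knockout, sham, and 2.08 in wild type, ligated, against 1.99 in wild type, sham. Only the array labelled CD39 knockout, ligated, lay above background. With the other arrays set at their background, Slc7a11 was at least 3.30-fold higher there than in CD39 knockout, sham, and at least 4.10-fold higher than in wild type, ligated. These bounds are 1.72 and 2.03 on the log2 scale. The deposited values give 3.06 and 2.63, which rest on values under background. No fold is given in wild type, where both arrays were at background.

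Gclc and Gclm encode the catalytic and the modifier subunit of glutamate-cysteine ligase, the rate-limiting enzyme of glutathione synthesis, and they went different ways. Gclm had 6.94 log2 on the array labelled CD39 knockout, ligated, against 5.27 in CD39 knockout, sham, and 5.43 in wild type, ligated, against 5.31 in wild type, sham. It was 3.18-fold higher after ligation in the knockout pair and 1.09-fold higher in wild type. The other 3 arrays of Gclm lay close together, and the array labelled CD39 knockout, ligated, stood above them. Gclc had 4.91 log2 on the array labelled CD39 knockout, ligated, against 4.58 in CD39 knockout, sham, and 4.45 in wild type, ligated, against 5.49 in wild type, sham. It was 1.26-fold higher after ligation in the knockout pair and 2.05-fold lower in wild type. Its highest array was wild type, sham.

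Gsr encodes glutathione reductase, which uses NADPH to return oxidised glutathione to its working form. The log2 value of Gsr was 7.64 on the array labelled CD39 knockout, ligated, against 4.75 in CD39 knockout, sham, and 5.91 in wild type, ligated, against 4.70 in wild type, sham. The sham arrays lay close to each other and both ligated arrays above them. Gsr was 7.44-fold higher after ligation in the knockout pair and 2.32-fold higher in wild type. Of the 9 genes only Gsr was at least 2-fold higher in both pairs.

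Txnrd1 encodes the cytosolic thioredoxin reductase, Srxn1 the sulfiredoxin that repairs overoxidised peroxiredoxins, and Prdx1 a cytosolic peroxiredoxin that thioredoxin regenerates. Txnrd1 had 5.16 log2 on the array labelled CD39 knockout, ligated, against 3.82 in CD39 knockout, sham, and 4.45 in wild type, ligated, against 3.81 in wild type, sham. It was 2.53-fold higher after ligation in the knockout pair and 1.56-fold higher in wild type. For Srxn1 the values were 5.79 on the array labelled CD39 knockout, ligated, against 4.80 in CD39 knockout, sham, and 4.58 in wild type, ligated, against 4.77 in wild type, sham. The other 3 arrays of Srxn1 lay together, and its knockout difference of 0.99 log2, or 1.99-fold, lay just under the 2-fold threshold. Prdx1 differed from both. Its brightest probe set had 8.52 log2 on the array labelled CD39 knockout, ligated, against 7.82 in CD39 knockout, sham, and 8.53 in wild type, ligated, against 8.55 in wild type, sham, so 3 of its arrays were level and the knockout sham array was lower. A second Prdx1 probe set did not show that lower value, with 8.34 log2 on the array labelled CD39 knockout, ligated, against 8.33 in CD39 knockout, sham, and the probe sets thus disagree by 0.70 and 0.01 log2 in this comparison.

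Nqo1, a quinone reductase often used as a readout of NRF2, was at or under background on all 4 arrays. Its log2 value was 2.41 on the array labelled CD39 knockout, ligated, against 1.88 in CD39 knockout, sham, and 2.23 in wild type, ligated, against 2.95 in wild type, sham, and no fold is given for it. The message of Nfe2l2 was well above background. It had 8.02 log2 on the array labelled CD39 knockout, ligated, against 8.09 in CD39 knockout, sham, and 7.91 in wild type, ligated, against 7.20 in wild type, sham. The wild-type sham array was the low one, and the other 3 lay close together, the knockout pair differing by -0.07 log2. NRF2 is controlled mainly through its degradation, which an array does not measure.

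The first comparison asked what 48 h of ligation did to these genes in the wild-type vein. At least 2-fold higher was 1 of the 9 genes, Gsr, where 6.6% of the 14115 genes kept were, and at least 2-fold lower was 1, Gclc, where 3.63% were. Counts of 1 in 9 are near these background shares. The median log2 difference of the 9 was 0.09, beside -0.01 over all genes kept. Above 0 were 5 of the 9, among them Slc7a11 with both arrays at background, where 50.6% of all genes kept were below 0.

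In the knockout, the array labelled CD39 knockout, ligated, was set against CD39 knockout, sham. Here 4 of the 9 genes, Slc7a11, Gsr, Gclm and Txnrd1, were at least 2-fold higher, where 10.9% of all genes kept were, and 0 were at least 2-fold lower, where 5.8% were. Slc7a11 is among the genes kept only through the array on which it is high here, so its call adds nothing beside that share. The median difference of the 9 was 0.99 log2, beside 0.03 over all genes kept. Above 0 were 8, all but Nfe2l2, where 48.3% of all genes kept were below 0. The 8 include Nqo1, at background on both arrays, so its direction is not known. With values raised to background it stood at -0.30, which is only the gap between the background levels of these arrays. The 8 also include Prdx1, whose second probe set differed by 0.01. Of the genes at least 2-fold apart in this comparison 65.3% were higher, but 51.5% after quantile normalisation and 53.9% after cyclic loess, and the count of 4 was the same under both. With wild type, sham, in place of CD39 knockout, sham, 5 of the 9 were at least 2-fold higher, Srxn1 being added at 1.03 log2. The share of all genes kept was not counted for this pair of arrays, so the 5 have no background beside them. Slc7a11 is again kept only through its high array. Against wild type, sham, the differences of Gsr (2.94), Slc7a11 (2.72, from a sham value under background), Gclm (1.63) and Txnrd1 (1.35) were past 2-fold too. Gclc (-0.58) and Prdx1 (-0.03) lay below wild type, sham, and Nfe2l2 above it (0.82). Nqo1 differed by -0.54, with both values at background.

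**Figure D2:**
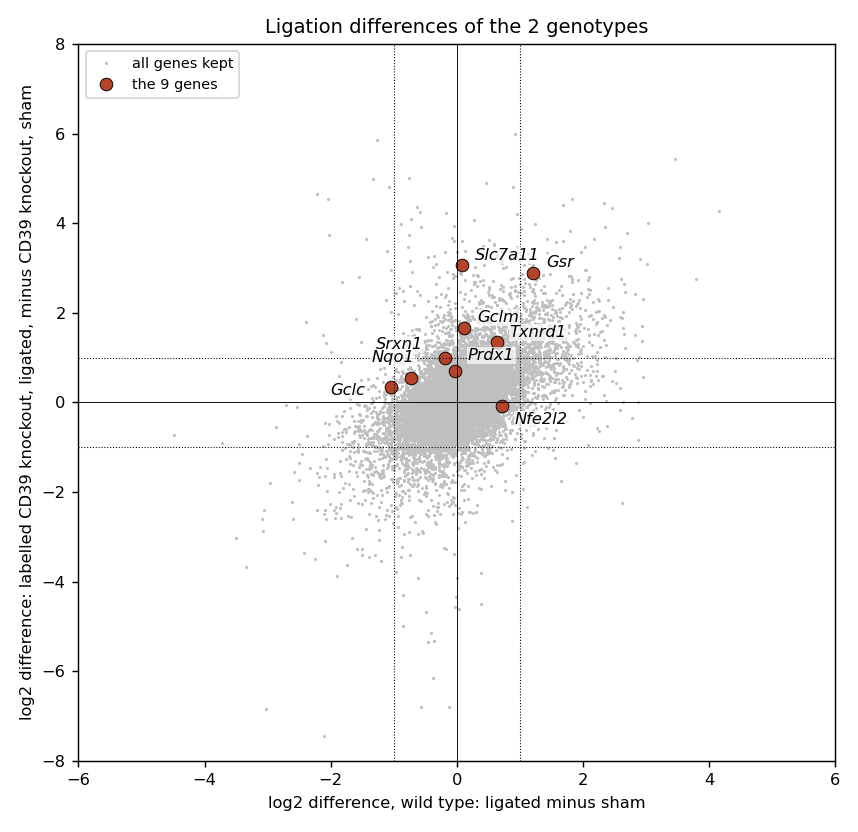
Log2 difference after ligation in wild type (horizontal axis) and in the knockout pair, the array labelled CD39 knockout, ligated, minus CD39 knockout, sham (vertical axis). Grey points are the 14115 genes kept, red points the 9 genes, and dotted lines mark 2-fold. Slc7a11 and Gclm lie high on the vertical axis near 0 on the horizontal one (0.09 and 0.12), and Gsr is past 2-fold on both axes. Deposited values are drawn, also where they lie under background, as for Slc7a11 and Nqo1.

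With ligation and genotype fitted as separate terms to the 4 arrays, limma's moderated test called 0 of the 14115 genes for ligation at an adjusted p of 0.05, so 0% of all genes and 0 of the 9; 2960 genes had an unadjusted p under 0.05. Gsr, with a mean ligation difference of 2.05 ± 0.45 log2 (SE, higher in 2 of 2 pairs), had a limma adjusted p of 0.124, and Txnrd1, at 0.99 ± 0.27 (2 of 2 pairs), one of 0.162. Slc7a11, at 1.57 ± 0.72 with 3 arrays under background, and Gclm, at 0.90 ± 0.42, had limma adjusted p-values of 0.299 and 0.307, and the other 5 genes had values of 0.528 to 0.904. The model leaves 1 residual degree of freedom and counts unequal responses of the genotypes as error. Those responses were unequal for Gsr too, whose ligation differences lay 1.68 log2 apart between the genotypes. They lay 2.97 apart for Slc7a11, from values mostly under background, 1.55 for Gclm and 0.70 for Txnrd1.

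The next comparison set CD39 knockout against wild type after sham surgery. At least 2-fold higher were 0 of the 9 genes, where 2.95% of all genes kept were, and lower was 1, where 3.54% were. That 1 gene was Nqo1, which lay at background on both arrays. Gsr (0.05), Srxn1 (0.03), Txnrd1 (0.01) and Gclm (-0.04) differed by at most 0.05 log2 between the sham arrays. Nfe2l2 was 1.86-fold higher in the knockout, and Gclc and Prdx1 were 1.88-fold and 1.66-fold lower. The median over the 9 was -0.04, beside -0.07 over all genes kept, of whose 2-fold differences 45.5% were higher, or 58.4% after cyclic loess.

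After ligation, the array labelled CD39 knockout was set against wild type, ligated. Here 4 of the 9 genes were at least 2-fold higher there, where 3.61% of all genes kept were, and 0 were lower, where 2.66% were. These were Slc7a11 (at least 4.10-fold), Gsr (3.31-fold), Gclm (2.86-fold) and Srxn1 (2.32-fold), and Txnrd1 followed at 1.64-fold. Slc7a11 is again among the genes kept only through this array. Prdx1 (-0.01), Nfe2l2 (0.11) and Nqo1 (0.19, at background on both arrays) differed little, and Gclc was 1.37-fold higher. The median of the 9 was 0.71, beside -0.03 over all genes. This comparison and the knockout ligation comparison share the array labelled CD39 knockout, ligated, so their counts are not separate evidence, and Entpd1 differed by -0.03 log2 between the ligated arrays.

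**Figure D3:**
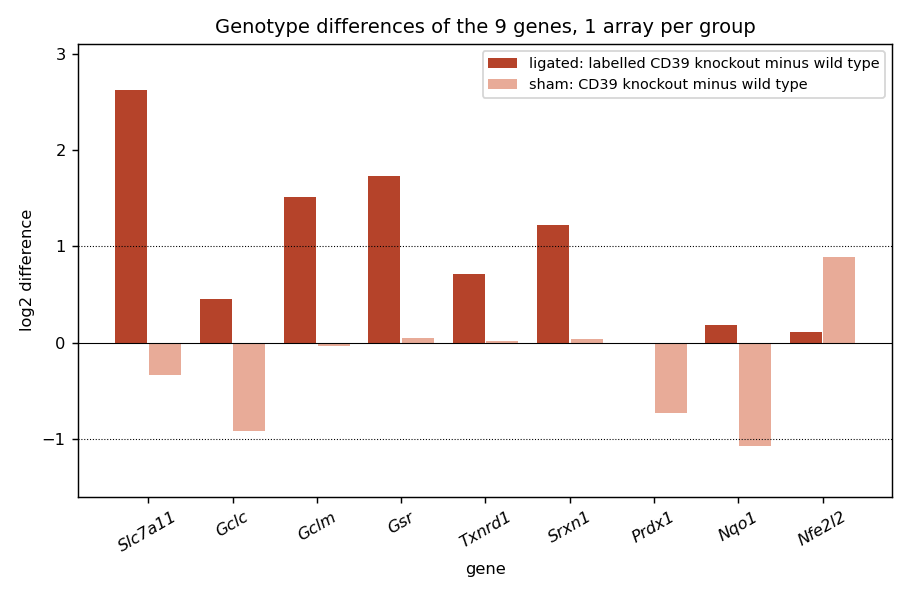
Log2 difference between the genotypes for each of the 9 genes, after ligation (dark bars, the array labelled CD39 knockout minus wild type) and after sham surgery (light bars, CD39 knockout minus wild type). Bars start at 0 and dotted lines mark 2-fold. Slc7a11, Gclm, Gsr and Srxn1 pass 2-fold after ligation and lie between -0.34 and 0.05 after sham surgery. Deposited values are drawn, and both sham values of Slc7a11 are under background.

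Cell type markers also differed between the arrays, and the lists did not all go the same way. Platelet markers had a median difference of 3.97 log2 in the knockout ligation comparison, with 6 of 6 measured genes at least 2-fold higher, against -1.17 in wild type with 4 of 6 lower. Their summed linear level was 2101 on the array labelled CD39 knockout, ligated, and 216 to 762 on the other 3, with Itga2b and Tubb1 at background in CD39 knockout, sham. Neutrophil markers had medians of 2.08 in the knockout and 0.06 in wild type, 4 of 7 and 2 of 7 being at least 2-fold higher, and a summed level of 4098 on that array and 1059 to 2573 on the others. Between the ligated arrays, 5 of 6 platelet and 7 of 7 neutrophil markers were at least 2-fold higher on the one labelled CD39 knockout, and 6 of 8 smooth muscle markers were at least 2-fold lower there. Between the sham arrays, 4 of 7 neutrophil markers were at least 2-fold higher in the knockout, and 3 of 6 platelet and 4 of 8 endothelial markers were at least 2-fold lower. Macrophage markers differed in both genotypes, with 6 of 8 at least 2-fold higher in the knockout (median 1.76) and 8 of 8 in wild type (2.17), and summed levels of 1908 and 1985 on the ligated arrays, against 553 and 445 on the sham arrays, knockout before wild type. Endothelial markers had 0 of 8 at least 2-fold lower in the knockout (median 0.19) and 6 of 8 in wild type (-1.35). Smooth muscle markers had 3 of 8 lower and 1 higher in the knockout, and 2 of 8 lower in wild type, with 7 of 8 lower in CD39 knockout, sham, than in wild type, sham. Of 8 erythroid markers 3 were measured, and 1 of them, Alas2, was at least 2-fold higher in the knockout (2.39). Brown adipocyte markers had 7 of 8 at least 2-fold lower after ligation in the knockout (median -3.17) and 3 of 8 in wild type (-0.52). In CD39 knockout, sham, 7 of 8 were at least 2-fold higher than in wild type, sham. Their summed levels were 2938 and 390 on the sham arrays and 182 and 270 on the ligated arrays, knockout before wild type. The part of these cell types in the results for the 9 genes was not tested, and in bulk RNA fewer cells of a type and less RNA per cell cannot be told apart.

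The genes whose levels over the 4 arrays ran most like those of Slc7a11 were taken as the 5 with the smallest Euclidean distance between centred log2 profiles. These were Nfe2 (0.18), a transcription factor of megakaryocytes and red cell precursors, the tetraspanin gene Cd9 (0.25), which platelets carry, Gchfr (0.26), the feedback regulator of GTP cyclohydrolase, the Rab GTPase gene Rab44 (0.26) and the lipid droplet gene Hilpda (0.26). The Slc7a11 profile itself lay under background on 3 of the 4 arrays. Cd9, Gchfr, Rab44 and Hilpda were 2.77 to 3.06 log2 higher on the array labelled CD39 knockout, ligated, than in CD39 knockout, sham. Nfe2 was under background on both sham arrays, and with these set at background it was at least 2.47 log2 higher. Of the other 8 genes of the set, Gsr was nearest to Slc7a11 (0.84, rank 95 of 14114) and Gclm next (1.06, rank 162), while Gclc was farthest (2.50, rank 6979). With 4 arrays, such likeness is a description only.

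Around these 9 genes, 75 of the 81 further genes on 8 redox lists were measured, 73 of which passed the filter. In the knockout ligation comparison 16 of the 75 were at least 2-fold higher (15 with values raised to background) and 9 lower, and in wild type 9 were higher and 6 lower, beside 10.9%, 5.8%, 6.6% and 3.63% of all genes kept. Their medians were 0.09 in the knockout and 0.13 in wild type. Between the ligated arrays, 1 of the 75 was at least 2-fold higher on the one labelled CD39 knockout and 5 were lower, with a median of 0.09. The shares of all genes kept were 3.61% and 2.66%. The lists differed from one another, so they are described in turn.

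**Figure D4:**
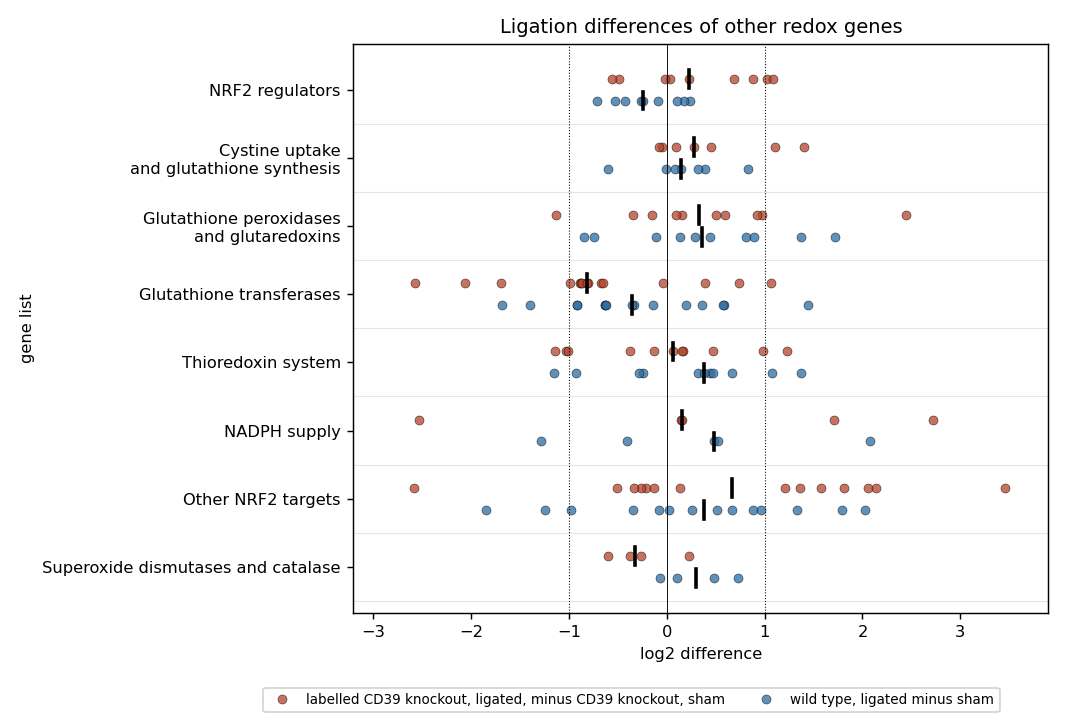
Log2 difference after ligation (horizontal axis) of the 75 other redox genes in 8 lists (vertical axis). Red points are the array labelled CD39 knockout, ligated, minus CD39 knockout, sham, blue points wild type, ligated minus sham, black bars medians, and dotted lines 2-fold. Other NRF2 targets reach 3.46 in the knockout (Hmox1), and glutathione transferases lie mostly below 0 there, with a median of -0.81.

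Among other NRF2 targets, 7 of 14 genes were at least 2-fold higher in the knockout and 3 of 14 in wild type, and 1 and 2 were lower. The count of 7 was the same under the 3 other scalings. Between the ligated arrays, however, 0 of the 14 were at least 2-fold higher on the one labelled CD39 knockout and 1 was lower, with a median of 0.13. In CD39 knockout, sham, against wild type, sham, the median of this list was -0.35. The heme oxygenase gene Hmox1 had 9.02 log2 on the array labelled CD39 knockout, ligated, against 5.57 in CD39 knockout, sham, and 8.40 in wild type, ligated, against 6.37 in wild type, sham. Akr1b8, an aldo-keto reductase gene, differed by 2.14 in the knockout and 1.79 in wild type. Ugdh, which makes UDP-glucuronate for conjugation, differed by 2.06 and 0.96. Ephx1, the microsomal epoxide hydrolase gene, had differences of -2.59 and -1.84.

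Genes listed for NADPH supply, on which Gsr and Txnrd1 both draw, split. The products of Pgd, Me1 and Idh1 make NADPH. Those of Taldo1 and Tkt act in steps of the pentose phosphate pathway that make none. Pgd, of the oxidative pentose phosphate pathway, had 6.73 log2 on the array labelled CD39 knockout, ligated, against 4.01 in CD39 knockout, sham, and 5.82 in wild type, ligated, against 3.74 in wild type, sham. Taldo1, the transaldolase gene, differed by 1.71 in the knockout and -0.41 in wild type. Me1, the cytosolic malic enzyme gene, had differences of -2.53 and -1.28, and it was 0.79 log2 higher in CD39 knockout, sham, than in wild type, sham, where the brown adipocyte markers were higher as well. In all, 2 of 5 measured genes were at least 2-fold higher and 1 lower in the knockout, and 1 and 1 in wild type. The 2 higher in the knockout were Pgd and Taldo1, of which only Pgd encodes an enzyme that makes NADPH.

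Among other genes of cystine uptake and glutathione synthesis, 2 of 7 were at least 2-fold higher in the knockout and 0 of 7 in wild type. These were Slc3a2, the heavy chain that carries the Slc7a11 product to the membrane (1.11 in the knockout, 0.83 in wild type), and Ggt5, a gamma-glutamyl transferase gene (at least 1.38, its knockout sham value being under background, and 0.32), but after quantile normalisation or cyclic loess 1 of 7 was past 2-fold. Among glutathione peroxidases and glutaredoxins the cytosolic glutaredoxin gene Glrx was higher in both genotypes, by 2.45 in the knockout and 1.37 in wild type. Gpx3, the plasma glutathione peroxidase gene, differed by 0.98 and 1.71, and Glrx3 by -1.13 and -0.74. The counts in this list were 1 of 10 higher and 1 lower in the knockout, and 2 and 0 in wild type.

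Glutathione transferases were mostly lower after ligation. In the knockout 3 of 15 were at least 2-fold lower and 1 higher (median -0.81), in wild type 2 and 1 (median -0.36), and both medians stayed below 0 under the 3 other scalings, with 7 lower and 0 higher in the knockout after quantile normalisation or cyclic loess. Gsta4, which conjugates lipid peroxidation aldehydes, had 3.37 log2 on the array labelled CD39 knockout, ligated, against 5.94 in CD39 knockout, sham, and 3.43 in wild type, ligated, against 5.11 in wild type, sham. Gsta3 (-2.06 in the knockout, -0.92 in wild type) and the mitochondrial and peroxisomal Gstk1 (-1.69 and -0.91) were also lower. Gstp1 was higher, by 1.07 and 1.44. In CD39 knockout, sham, 12 of the 15 lay above wild type, sham (median 0.15), where 56.7% of all genes kept were below 0. The brown adipocyte markers were higher on that knockout array as well, and a link was not tested. Between the ligated arrays the median of the list was -0.05. Members of the alpha and mu classes are similar in sequence, so the probe sets of close relatives may share signal.

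In the thioredoxin system, 1 of 11 other genes was at least 2-fold higher and 3 lower in the knockout, and 2 were higher and 1 lower in wild type. With arrays centred on their medians the knockout counts were 2 higher and 1 lower, so the balance turns with the scaling. The 1 higher gene was Sesn2, a stress-induced sestrin gene, whose knockout sham value was under background. With values raised to background it differed by 0.93 in the knockout and -0.28 in wild type, and 0 of the 11 were 2-fold higher in the knockout. The red cell peroxiredoxin gene Prdx2 differed by 0.98 and 1.38. Txnip, whose product binds and inhibits thioredoxin, had 7.42 log2 on the array labelled CD39 knockout, ligated, against 7.27 in CD39 knockout, sham, and 7.16 in wild type, ligated, against 8.31 in wild type, sham, so its high array was wild type, sham, as for Gclc. Prdx4, the peroxiredoxin of the endoplasmic reticulum, had differences of -1.03 and -0.93. Thioredoxin itself, Txn1, is on this list and differed by 0.07 and 0.44.

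Of the regulators of NRF2, 0 of 9 were 2-fold apart in wild type. In the knockout 2 of 9 were at least 2-fold higher, namely the small MAF gene Maff (1.02) and Sqstm1, which encodes the KEAP1-binding adaptor p62 (1.09), and neither was past 2-fold after quantile normalisation or cyclic loess. Keap1 differed by -0.49 in the knockout and -0.09 in wild type, and Bach1, the repressor that competes for the same elements, by 0.88 and 0.24. In CD39 knockout, sham, against wild type, sham, all 9 had differences below 0 and 0 were 2-fold apart, where 56.7% of all genes kept were below 0. Superoxide dismutases and catalase had 0 of 4 genes 2-fold apart after ligation in either genotype, and Cat was 1.18 log2 higher in CD39 knockout, sham, than in wild type, sham.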

How the data were processed

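Total RNA was extracted with Trizol, 50 ng per pool was amplified to cDNA, and 3 µg of cDNA was labelled with biotin, per the labels' protocols. Per the submitters' processing notes, the authors used RMA and oligo, and each deposited value is the log2 level of 1 probe set. The sources used here give neither software versions nor a genome build. RMA quantile normalises arrays, so a global shift in RNA would not show. The deposited values were still not level between arrays. Background lay at 2.67 and 2.68 on the ligated arrays and at 2.96 and 2.98 on the sham arrays. In the knockout ligation comparison 1537 genes kept were at least 2-fold higher and 818 lower. After quantile normalising the deposited values again, these counts were 1118 and 1052. The values were used as deposited. Arrays have no read depth, and their number (4) limits the precision.

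Of 35556 probe sets, 21218 carried 1 gene symbol in the platform annotation. The brightest by mean over the 4 arrays stood for a gene. Genes kept had a mean at or above the 25th percentile (2.29 log2), leaving 14115. Background was taken as the 95th percentile of olfactory receptor genes on each array. Values under it were raised to it for "at least" differences, which was decided on after seeing the data.

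The 4 comparisons are differences of log2 values between 2 arrays, called at 2-fold, with no test. The one test was an additive model of genotype and ligation fitted by lmFit and eBayes (limma 3.58.1, R 4.3.3), adjusted by Benjamini-Hochberg over all genes kept. The script was tested on simulated data. The members and lists were chosen with earlier results of these data known. Genes named are the 9 members, Entpd1, up to 4 genes per redox list with the largest mean ligation difference among those 2-fold apart in any comparison, and the 5 nearest to Slc7a11. This rule does not cover Keap1, Bach1, Txn1 and the marker genes, whose values had been seen when they were chosen. The promoter letters were also chosen then. Alternatives were other scalings, probe set averages, a 1.5-fold threshold, another sham array, and other limma settings.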

Additional observations from a re-analysis of the deposited data

Results flagged for a closer look

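Among 84 redox genes looked at, 12 had differences of opposite sign between the genotypes or the surgeries, with at least 1 side past 2-fold. Of these, 8 were named by rule and 4 were not (Prdx3, Sesn1, Sesn3 and Mgst3, looked for after their values were seen). With values raised to background both conditions still held for 5 of the 8, all but Slc7a11, Nqo1 and Sesn2, and for all 4 others. For Slc7a11 and Nqo1 this step cannot decide the sign after sham surgery, because both sham values are under background. The share of all genes kept that meet both conditions was not counted, so these counts have no background share beside them. With 1 array per group none of these contrasts between comparisons was tested, and all involve the array labelled CD39 knockout, ligated, and CD39 knockout, sham. Each value is a log2 difference of differences, which is the same number whether read across genotypes or across surgeries. Slc7a11 differed between the genotypes by 2.63 after ligation and -0.34 after sham surgery, 2.97 apart in the deposited values. Both sham values were under background. With values raised to it the difference after ligation was 2.03. The one after sham surgery, 0.027, is only the gap between the background levels of the sham arrays, so its sign says nothing about Slc7a11. Gclm differed likewise by 1.51 and -0.04, 1.55 apart. Nqo1 differed by 0.19 and -1.07, 1.26 apart, all at background. Gclc differed after ligation by 0.33 in the knockout and -1.04 in wild type, 1.37 apart. Among the other redox genes, ligation differences of Maff were 1.02 in the knockout and -0.52 in wild type (1.54 apart), of Sesn2 1.23 and -0.28 (1.51 apart, or 0.93 and -0.28 with values raised to background), of Txnip 0.15 and -1.15 (1.30 apart) and of Taldo1 1.71 and -0.41 (2.11 apart). Txnip and Taldo1 also differed in sign between the surgeries, by 0.26 after ligation and -1.05 after sham surgery for Txnip, and by 1.99 and -0.13 for Taldo1.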

How the results depend on the processing

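No paired analysis was possible because each group is 1 array and the labels carry no replicate numbers, and no replicate could be left out. A value without a test was taken as moved where it crossed 2-fold or shifted by over 1.5 times. The counts of 4 genes higher in the knockout ligation comparison and 4 higher in the ligated genotype comparison stayed within 1.5 times of that under every alternative run. The median in the knockout ligation comparison, 0.99, ran from 0.73 to 1.05, passing 2-fold at 1.05 with arrays centred on their medians and at 1.03 with wild type, sham, as reference. With median centring 0 genes, in place of 1, were 2-fold lower in wild type (Gclc at -0.99). At a 1.5-fold threshold 3 genes were higher and 2 lower in wild type, and 1 higher and 3 lower in the sham genotype comparison. The lower genes include Nqo1 in both, at background on all 4 arrays. Shares of all genes kept at 1.5-fold were not counted, so these counts have no background beside them. With values raised to background 0 genes were lower in the sham genotype comparison. Nqo1 then stood at 0.027, which is only the gap between the background levels of the sham arrays. The limma difference of Nqo1, -0.09, turned to 0.0603 after quantile normalisation and 0.0658 after cyclic loess. Limma called 0 genes under each of its 5 alternatives, with 2802 to 5525 genes at an unadjusted p under 0.05. The sham genotype median of the 9 genes ran from -0.04 to 0.08 and the wild-type ligation median from -0.03 to 0.14, so neither has a settled sign. No scaling moved the median of all genes kept by 0.1 log2. The cause of these shifts was not tested beyond what each setting does. Signal near background limits Slc7a11, Nqo1, Sesn2, Ggt5 and Nfe2.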
